A study of Mus musculus with 24 samples.

Results

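The genes described here are 49 mouse genes that encode adhesion molecules and scaffold proteins of the synapse, most of them very long. They were chosen by name and not by any measured value, but with earlier results of these data known. A window of the 5hmC lists was counted if its midpoint lay in the gene span (GRCm38) or it carried the gene's Ensembl ID. Of the 20726 listed windows, 88 lay inside these genes, and 128 lay inside or carried the ID of one of them. The 49 genes sum to 33.43 Mb with a median length of 550.8 kb, from Lrrtm2 at 6.022 kb to Cntnap2 at 2245 kb. In all, 41 are at least 100 kb long, and 7 are on chromosome 6.

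The study profiled 5-hydroxymethylcytosine (5hmC) in mouse embryonic stem cells of a mixed C57BL/6J-129V background that lack Tet1, Tet2 and Tet3. These cells were given human Tet3 by lentivirus, either wild-type (the line Wt25) or a phosphor-mutant with serines changed to alanine (the line AA10). Each line is 1 puromycin-selected clone grown in 2i medium with LIF, so the Tet3 form and the clone cannot be told apart. For each line 3 libraries of DNA pulled down with a 5hmC antibody (5hmC-DIP) were sequenced, and the deposited lists give 1 result over all of them. A listed window is a 200 bp bin, given 2 bp shorter in the lists, in which the 5hmC read count differed between the lines. It was listed as higher in Wt25 (12096 windows) or higher in AA10 (8630 windows). The lists hold positions only, with no read count and no value per library, so the size and the error of a difference in a single window are unknown, and no test between the lines was possible. Intervals below are 95% Wilson intervals for shares and exact 95% Poisson intervals for densities. They cover counting error only, and windows of 1 gene are not replicates.

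Synaptic adhesion proteins span the cleft between neurons, and scaffold proteins hold receptors and adhesion molecules in place beneath the membrane. TET enzymes oxidise methylated cytosine to 5hmC, which occurs mostly at CpG dinucleotides and is abundant in the bodies of genes in neurons. Embryonic stem cells form no synapses; whether these genes were transcribed in either line was not analysed here.

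Windows from the genes that carry most of the counts are shown first, so that the CpG content behind the values can be seen. Except for the last line, each is the intronic window with most CpGs in the stated direction among those that touch no exon, read 5′ to 3′ on the plus strand of the GRCm38.p6 assembly from RefSeq, with CpG dinucleotides in capitals. The cells are of mixed strain, so their own alleles may differ from this reference. The Magi2 and Dlg2 windows were higher in Wt25, with 3 CpGs each, in introns 6 and 18. The Kirrel3, Csmd1, Sdk1 and Magi1 windows were higher in AA10, with 4, 5, 4 and 6 CpGs, in introns 2, 9, 5 and 13. The last line, chosen after the values were seen, is the Wt25 window upstream of an internal Nlgn1 transcript start, with 4 CpGs. None of the 32-base stretches of these 7 windows occurs elsewhere in the assembled chromosomes. The equivalent Dlgap2 window, chr8:14289403-14289600 in intron 3, is not shown: it is 96.0% repeat, and each of its 167 32-base stretches occurs elsewhere, in up to 2663 places.
Magi2 chr5:20298003-20298200: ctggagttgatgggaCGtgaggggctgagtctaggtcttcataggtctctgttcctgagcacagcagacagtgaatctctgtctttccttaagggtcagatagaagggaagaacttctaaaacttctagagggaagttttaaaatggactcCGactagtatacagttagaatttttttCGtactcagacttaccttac
Dlg2 chr7:92171603-92171800: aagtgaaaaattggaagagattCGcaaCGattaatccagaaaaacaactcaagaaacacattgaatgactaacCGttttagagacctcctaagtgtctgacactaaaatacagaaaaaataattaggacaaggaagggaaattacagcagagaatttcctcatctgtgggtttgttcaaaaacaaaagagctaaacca
Kirrel3 chr9:34562803-34563000: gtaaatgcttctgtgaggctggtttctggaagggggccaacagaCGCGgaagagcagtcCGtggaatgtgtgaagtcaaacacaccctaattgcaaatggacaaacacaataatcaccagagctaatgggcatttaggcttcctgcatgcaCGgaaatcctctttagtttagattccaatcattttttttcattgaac
Csmd1 chr8:16352603-16352800: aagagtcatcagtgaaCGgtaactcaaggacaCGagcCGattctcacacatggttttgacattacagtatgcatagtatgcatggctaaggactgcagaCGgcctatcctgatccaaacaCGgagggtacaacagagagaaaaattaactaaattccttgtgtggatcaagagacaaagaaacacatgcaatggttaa
Sdk1 chr5:141836003-141836200: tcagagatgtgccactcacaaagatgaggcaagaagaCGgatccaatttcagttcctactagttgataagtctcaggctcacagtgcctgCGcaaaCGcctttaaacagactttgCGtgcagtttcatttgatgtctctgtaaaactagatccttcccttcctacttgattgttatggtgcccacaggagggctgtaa
Magi1 chr6:93716203-93716400: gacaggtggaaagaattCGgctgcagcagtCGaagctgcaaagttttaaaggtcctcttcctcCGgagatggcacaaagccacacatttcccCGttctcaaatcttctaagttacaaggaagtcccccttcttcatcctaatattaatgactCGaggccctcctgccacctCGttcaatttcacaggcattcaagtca
Nlgn1 chr3:26153403-26153600: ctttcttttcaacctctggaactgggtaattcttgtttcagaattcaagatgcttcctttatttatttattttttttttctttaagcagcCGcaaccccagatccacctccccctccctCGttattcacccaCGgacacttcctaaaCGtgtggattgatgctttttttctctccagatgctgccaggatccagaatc

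The 88 windows were split almost evenly between the directions, 46 higher in Wt25 and 42 higher in AA10, or 52.3% higher in Wt25 (42.0 to 62.4%). Chromosome 6 differed from the rest. Of the 19 windows in its member genes 1 was higher in Wt25 (5.26%, 0.935 to 24.6%), against 45 of 69 in members elsewhere (65.2%, 53.4 to 75.4%). The other genes of at least 100 kb showed the same contrast, with 9.79% of windows higher in Wt25 on chromosome 6 and 67.6% elsewhere. Adding windows outside the genes that carry a member's ID raised the share on chromosome 6 to 20.5%, and counting by ID alone gave 21.1%. The cause of the direction on chromosome 6 was not tested.

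A window higher in Wt25 lay in 18 of the 49 genes (36.7%), against a background of 13.9% of all autosomal protein-coding genes. A window higher in AA10 lay in 15 (30.6%), against 10.4%. Long genes hold more bins, and among genes of at least 100 kb the distance to the background was small: 17 of 41 members (41.5%) against 36.5% for Wt25, and 15 of 41 (36.6%) against 31.3% for AA10. A window of either direction lay in 27 members (55.1%), against 22.1% of all genes, and 22 held none. Among the 41 long members the number was 26 (63.4%), against 55.7% of genes of that length. Of these 41, 6 held windows of both directions (14.6%), 11 Wt25 windows alone (26.8%) and 9 AA10 windows alone (22%), against 12.1%, 24.4% and 19.2%. The shares of the long members were near these backgrounds. Few genes carried most of the counts. The 7 genes with at least 5 windows, Magi1, Magi2, Kirrel3, Dlgap2, Dlg2, Csmd1 and Sdk1, held 57 of the 88 (64.8%), while 13 genes had exactly 1.

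**Figure D1:**
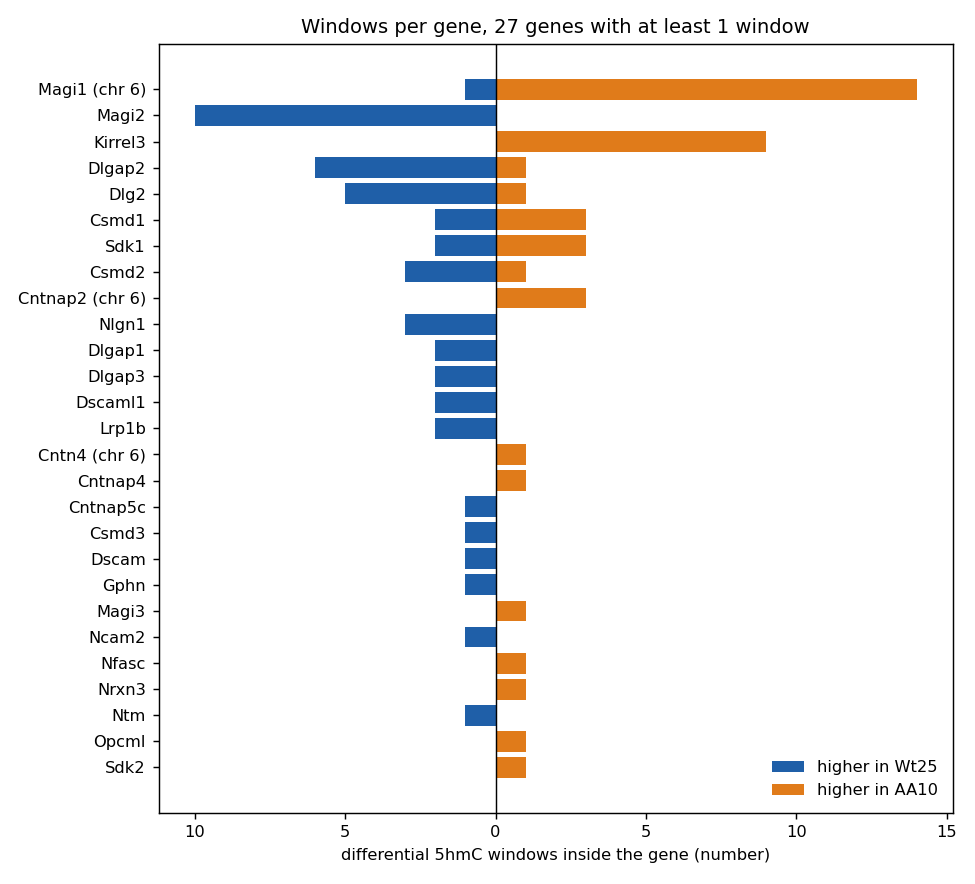
Number of differential 5hmC windows inside each of the 27 genes with at least 1, with windows higher in Wt25 drawn to the left and windows higher in AA10 to the right. Magi2 reached 10 windows to the left and none to the right, Kirrel3 9 to the right and none to the left, and Magi1, on chromosome 6, 14 to the right and 1 to the left.

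Per length, windows were sparse in these genes. Wt25 windows had a density of 1.38 per Mb (1.007 to 1.835) in the members and 4.88 per Mb (4.696 to 5.063) in the other 2331 protein-coding genes of at least 100 kb. AA10 windows had densities of 1.26 per Mb (0.9054 to 1.698) and 2.78 per Mb (2.642 to 2.919). Outside chromosome 6 the members held 1.61 Wt25 and 0.858 AA10 windows per Mb, against 5.15 and 2.47 in the other long genes. The 30 adhesion genes there held 0.888 and 0.981 per Mb, and the 12 scaffold genes 3.96 and 0.457. The Wt25 density was thus lowest in the adhesion genes, without a match for gene length or CpG number. On chromosome 6 the members held 0.183 and 3.3 per Mb, against 0.794 and 7.32.

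The Wt25 density was below that of other genes in each of the 4 length classes. Among genes of at least 1000 kb, the 11 members held 1.12 Wt25 and 0.561 AA10 windows per Mb, against 2.52 and 1.87 in 44 other genes. Among genes of 500 to 1000 kb, the 14 members held 1.89 Wt25 windows per Mb against 3.72, but 2.65 AA10 windows per Mb against 1.41. That AA10 value rested on Magi1 and Kirrel3, which gave 23 of its 28 windows; without them it was 0.531 per Mb (0.172 to 1.24). The smaller classes held few member windows: 4 Wt25 and 2 AA10 windows in the 11 members of 250 to 500 kb, and 0 and 2 in the 5 members of 100 to 250 kb.

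**Figure D2:**
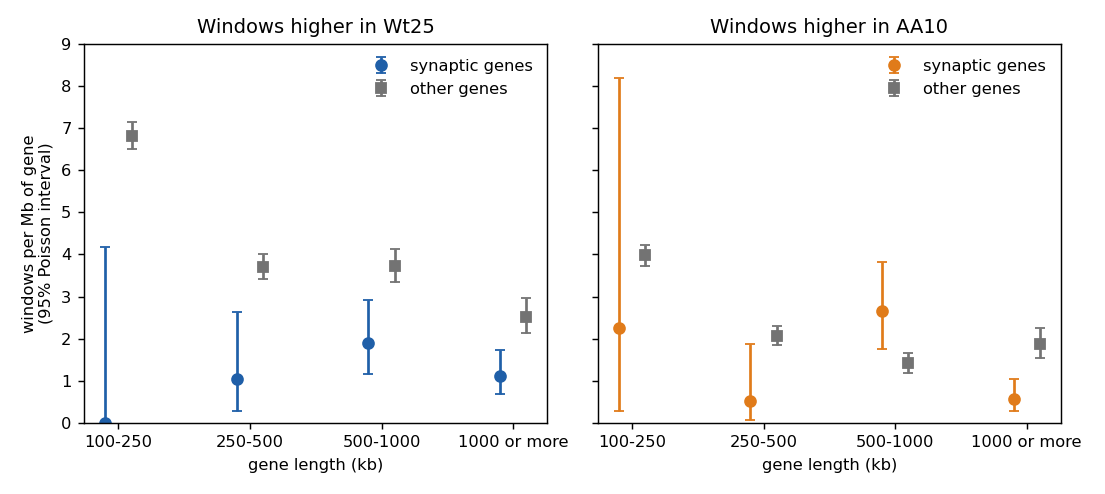
Windows per Mb of gene by gene length class, for the synaptic genes (circles) and the other autosomal protein-coding genes (squares), with exact 95% Poisson intervals, and the 2 directions in separate panels. The Wt25 density of the synaptic genes was lower in every class, and their AA10 density was above that of other genes only at 500 to 1000 kb, 2.65 against 1.41.

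The member genes held fewer CpGs than other long genes did. Unlisted 200 bp bins of the members held 1.25 ± 1.62 CpGs (SD over 167086 bins) and 37.1% held none, against a mean of 1.74 and 27.6% in other long genes. The listed windows held more: 3.07 ± 2.45 CpGs in Wt25 windows (SD, n = 46) and 2.79 ± 1.46 in AA10 windows (SD, n = 42), and every member window had at least 1. The share with 3 or more CpGs was 47.8% of Wt25 and 45.2% of AA10 windows, against 14.3% of unlisted member bins. At a matched number of CpGs the members still held fewer windows. At the rates of other long genes for bins of equal CpG number they would hold 123 Wt25 windows, and they held 46, a ratio of 0.373 (0.273 to 0.498). For AA10 the numbers were 70.3 and 42, a ratio of 0.598 (0.431 to 0.808). Without matching on CpG the ratios were 0.282 and 0.451. Outside chromosome 6 the matched ratios were 0.403 (0.294 to 0.539) and 0.452 (0.289 to 0.672). None of these ratios was matched for gene length. In other genes of 100 to 250 kb the densities were 6.82 Wt25 and 3.98 AA10 windows per Mb. At 1000 kb or more they were 2.52 and 1.87.

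**Figure D3:**
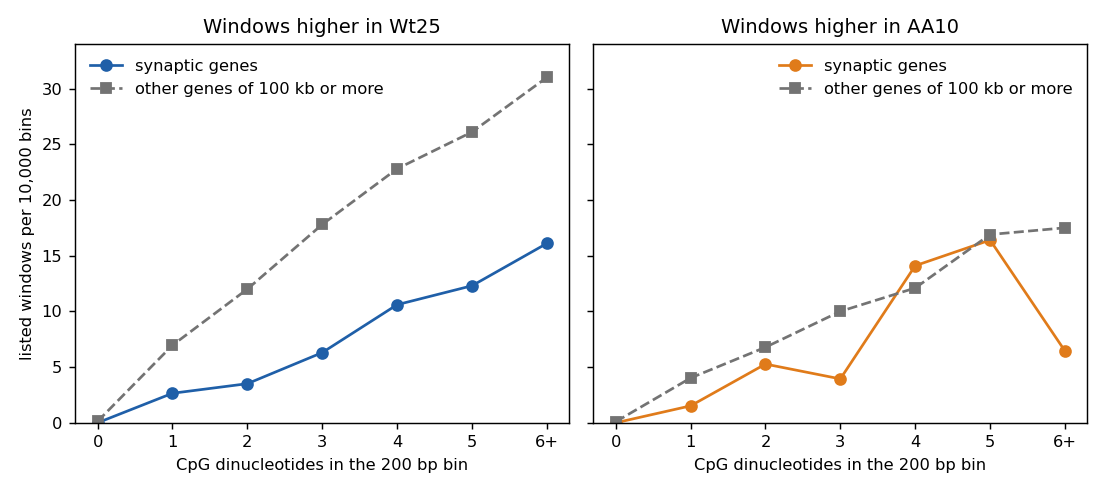
Listed windows per 10000 bins against the number of CpGs in the 200 bp bin, for the synaptic genes (circles) and the other genes of at least 100 kb (squares). In the Wt25 panel the synaptic genes rose from 0 at no CpG to 16.1 at 6 or more and stayed below the other genes at each number, while in the AA10 panel they were above them only at 4 CpGs, 14.1 against 12.1.

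Nearly all windows were intronic. Of the 88, 85 lay in introns (96.6%, 90.5 to 98.8%), against 4081 of the 4296 windows in other long genes. The 3 remaining windows were higher in Wt25 and were classed as promoter windows, at internal transcript starts, before any overlap with an exon was considered. Whatever the class, the midpoint of 1 member window (1.14%) lay in an exon, against 4.31% in other long genes, and 2 windows (2.27%) touched an exon with any base, against 6.84%. These were 1 in Nlgn1 and 1 in Dlg2. In Nlgn1, which encodes a postsynaptic partner of the neurexins, a touching pair in intron 2 lay at the start of a shorter coding transcript, with 8 CpGs in the window over the start, which reaches into the exon, and 4 in the window shown above, whose midpoint lies 194 bp upstream. In Magi2 the window lay 285 bp upstream of such a start, in intron 5, with 2 CpGs. The midpoints of the 85 intronic windows had a median distance of 18.27 kb from the nearest exon, and 7 lay within 1 kb of an exon.

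Intron 1 held few of the windows. It contained 10 of the 85 intronic windows (11.8%, 6.52 to 20.3%) and makes up 23.3% of the members' intron length. In other long genes intron 1 held 35.4% of the intronic windows and 24.9% of the length. The number of an intron depends on the transcript, here the longest coding one, in which intron 1 is 0.44 kb in Dlg2 and 2.428 kb in Kirrel3. All 4 AA10 windows in an intron 1 were in Magi1; outside chromosome 6 the number was 0 of 24. The last 40% of the gene span held 51 of the 88 windows (58.0%, 47.5 to 67.7%), against 35.1% in other long genes. The share was 69.0% for AA10 (29 of 42) and 47.8% for Wt25 (22 of 46). The pooled share rested on the genes with most windows: without the 7 genes of at least 5 windows it was 32.3% (10 of 31). By direction it was then 54.5% for AA10 (6 of 11, 28.0 to 78.7%) and 20.0% for Wt25 (4 of 20, 8.07 to 41.6%). Without Kirrel3 and Magi1 alone, the AA10 share was 63.2% (12 of 19). Without the 7 genes intron 1 held 5 of 29 intronic windows (17.2%).

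**Figure D4:**
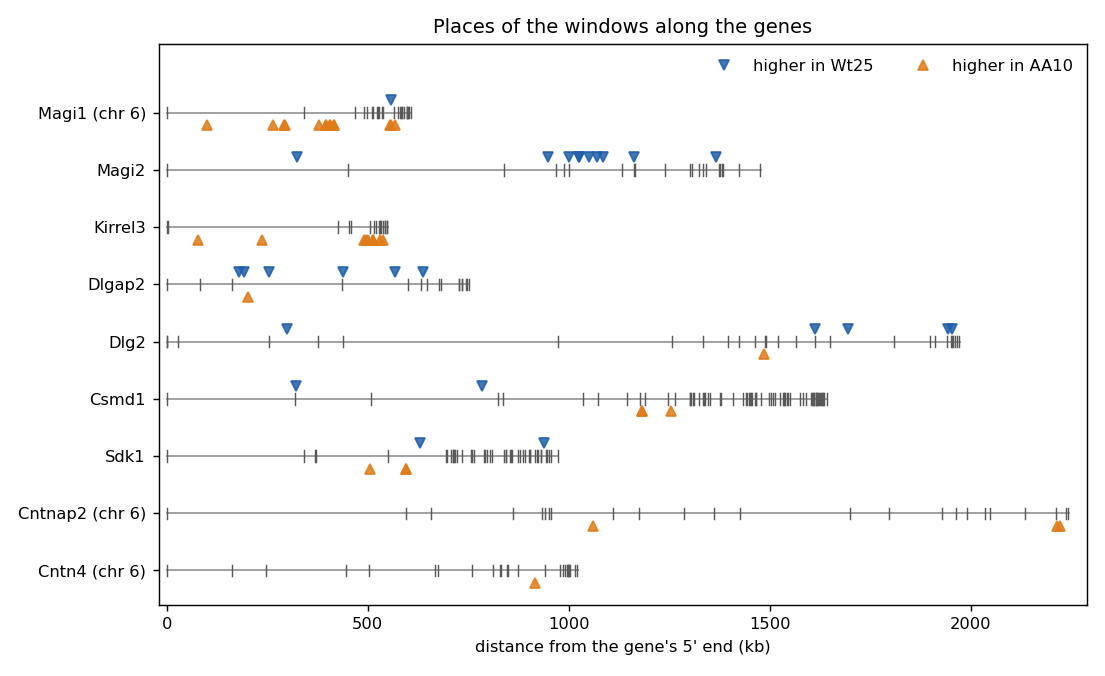
Places of the windows along the 7 genes with at least 5 windows and the other chromosome 6 genes with any, as distance in kb from the 5′ end, with exons as ticks and each window as a triangle, above the line where higher in Wt25 and below it where higher in AA10. The Kirrel3 windows gather between 490.2 and 538.6 kb, and those of Magi2 mostly beyond 948.1 kb.

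Among the scaffold genes outside chromosome 6, most windows were higher in Wt25. The 12 genes there held 26 Wt25 and 3 AA10 windows (89.7% Wt25, 73.6 to 96.4%), and 16 and 3 without Magi2 (84.2%, 62.4 to 94.5%). In other genes of at least 100 kb outside chromosome 6, 67.6% of windows were higher in Wt25. The 26 Wt25 windows lay in 6 of the 12 genes, with 10 in Magi2, 6 in Dlgap2 and 5 in Dlg2. The 30 adhesion genes outside chromosome 6 held 19 and 21 (47.5%, 32.9 to 62.5%), and 19 and 12 without Kirrel3 (61.3%, 43.8 to 76.3%). All 13 scaffold genes held 6.13 windows per Mb over both directions, and the 36 adhesion genes 1.68. Outside chromosome 6 these densities were 4.42 and 1.87. They were not matched for gene length or CpG number.

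The membrane-associated guanylate kinases of the Magi family, which bind receptors and adhesion molecules through PDZ domains, differed in direction between Magi1 and Magi2. Magi1 is on chromosome 6, where 9.79% of windows in other long genes were higher in Wt25, against 67.6% elsewhere. Gene and chromosome cannot be told apart in this contrast. Magi2 (chr5:19227036-20704792, plus strand, 1478 kb) held 10 windows, all higher in Wt25, or 0.677 per 100 kb. They fell in introns 1, 3, 6, 8 and 15 and at the internal start, with 5 of them in intron 6, and 6 of the 10 lay within 84.8 kb, 5.74% of the gene. Several were mostly repeat, at 93.9, 91.9, 90.9, 77.3 and 53.5%, and the others were at most 30.3% repeat. By count, with no adjustment for gene length, 43 of the 2372 genes of at least 100 kb held more Wt25 windows. Magi1 (chr6:93675455-94283917, minus strand, 608.5 kb) held 14 windows higher in AA10, or 2.3 per 100 kb, and by count 8 long genes held more. They fell in introns 1 (4 windows), 2 (7), 12 (2) and 13 (1), and 6 of those in intron 2 formed 3 touching pairs. Its 1 Wt25 window, also in intron 12, lay 1.2 kb from an AA10 window, the shortest distance between opposite windows in any member. A further 3 AA10 windows carrying the Magi1 ID lay 217.6 to 227.6 kb past its 3′ end. Magi3 held 1 AA10 window, in intron 3.

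The Dlg scaffolds, which include the PSD-95 family, and the Dlg-associated proteins that link them to Shank held 15 Wt25 and 2 AA10 windows. Dlgap2 (chr8:14095865-14847680, 751.8 kb) held 6 and 1. The 4 windows in its intron 3, which spans 273.0 kb, included both directions, with the AA10 window 7.8 kb from a Wt25 window. The other 3, in introns 4 and 6, were higher in Wt25 and carried the ID of the neighbour Cln8. Dlg2, which encodes PSD-93 (chr7:90476672-92449247, 1973 kb), held 5 Wt25 windows in introns 4, 17, 18, 22 and 24 of 27 and 1 AA10 window in intron 12. The Wt25 window in intron 22, with 7 CpGs, had its midpoint 0.028 kb from an exon and reached into it. Dlgap1 and Dlgap3 held 2 Wt25 windows each, and Dlg1 and Dlg4, which encodes PSD-95, held none. Shank1, Shank2 and Shank3, the master scaffolds of excitatory synapses, held none, and gephyrin (Gphn), the scaffold of inhibitory synapses, held 1 Wt25 window, in intron 21 of 23.

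Of the adhesion genes, Kirrel3 (chr9:34485894-35036716, plus strand, 550.8 kb), which encodes a nephrin-like protein that binds its own kind across cells, held 9 windows, all higher in AA10, or 1.63 per 100 kb. By count, 16 long genes held more AA10 windows. Intron 2, which spans 422.6 kb, held 2 separate windows. Intron 5 held 3, intron 6 a touching pair, and introns 11 and 13 held 1 each. The 7 windows past intron 2 lay within 48.6 kb, 8.82% of the gene, and carried the ID of the neighbour 4930581F22Rik. A count by deposited ID would therefore miss most of Kirrel3. The rest of its group was nearly empty: Ncam2 held 1 Wt25 and Nfasc 1 AA10 window, and Ncam1 and Nrcam held none, although 1 Wt25 window with 5 CpGs lay 0.384 kb upstream of Nrcam.

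The Dscam and sidekick genes, whose products sort neuronal contacts by binding themselves, held 5 Wt25 and 4 AA10 windows. Sdk1 held 2 and 3, with windows of both directions in intron 5 at 35.0 kb from each other. Dscaml1 held 2 Wt25 windows and Dscam 1, while Sdk2 held 1 AA10 window. The very long genes of the CUB and sushi domain proteins and of the receptor Lrp1b held 8 and 4. In Csmd1 (1643 kb) the 2 Wt25 windows lay in introns 2 and 3 and the 3 AA10 windows farther along, in introns 9 and 11, with 397.8 kb between the nearest of opposite direction. Csmd2 held 3 Wt25 windows and 1 AA10 window, Csmd3 1 Wt25 window, and Lrp1b 2 Wt25 windows in its 2058 kb, both in intron 2.

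The presynaptic neurexins and their neuroligin partners held 4 windows, the 3 Wt25 windows of Nlgn1 and 1 AA10 window in intron 3 of Nrxn3, while Nrxn2 and Nlgn2 held none. The contactin-associated proteins, neurexin-like molecules of axons, held 1 Wt25 window, in Cntnap5c, and 4 AA10 windows, 3 of them in Cntnap2 and 1 in Cntnap4. Their partners the contactins held 1 window in 3.372 Mb, an AA10 window in intron 14 of Cntn4. The GPI-anchored IgLON proteins held 2 in 5.055 Mb, a Wt25 window in Ntm and an AA10 window in Opcml, and Lsamp, at 2197 kb the longest member without a window, held none. The Lrrtm genes, which encode postsynaptic neurexin ligands, held none in 0.9742 Mb.

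On chromosome 6, Magi1, Cntnap2 and Cntn4 held windows, and Cntn3, Cntn6, Lrrtm1 and Lrrtm4 held none inside. The 3 AA10 windows of Cntnap2 (chr6:45059357-47304213, plus strand) lay in intron 8 (1 window) and in intron 22 of 23 (2 windows), and 2 of the 3, 1 in each of these introns, had more than 50% of their 32-base stretches elsewhere in the genome (75.4% and 58.1%). Upstream of Cntnap2 the direction differed from that of the chromosome: 5 windows carrying its ID, all higher in Wt25, lay 507.9 to 593.7 kb before its start, within 86.0 kb, and 1 AA10 window lay 246.7 kb before it. The ID of Lrrtm1 was given to 6 AA10 and 2 Wt25 windows, 20.39 to 1859 kb upstream.

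In all, 22 members held no window inside. The contactins without one were Cntn1, Cntn2, Cntn3, Cntn5 and Cntn6, and the others were Lrrtm1, Lrrtm2, Lrrtm3, Lrrtm4, Negr1, Lsamp, Cntnap5a, Cntnap5b, Shank1, Shank2, Shank3, Nlgn2, Nrxn2, Ncam1, Nrcam, Dlg1 and Dlg4. They sum to 9.377 Mb; 7 of them are under 100 kb, and 6 are at least 500 kb. For 9 of the 22 a window outside carried the gene's ID, and for 13 none did.

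The deposited ID and the gene span often named different genes. Of the 88 windows inside members, 52 carried the member's own ID, 34 that of another gene and 2 none. A further 41 windows (22 Wt25, 19 AA10) carried a member's ID but lay outside it, 38 upstream and 3 downstream, at a median distance of 249.6 kb, and 31 of them were over 100 kb away. Of the 41, 1 with the ID of Cntn2 lies inside Nfasc and is counted there too. Dlgap1 was given 4 Wt25 windows 183.0 to 249.6 kb upstream, beside its 2 inside.

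Repeats made up most of 14 of the 46 Wt25 windows (30.4%) and 8 of the 42 AA10 windows (19.0%), against 20.3% of unlisted member bins. Of the 88 windows, 60 had no 32-base stretch that occurs elsewhere, and 4 had more than 50% of them elsewhere: the Dlgap2 window that is not shown, 2 in Cntnap2 and 1 in Lrp1b. Most windows were isolated. Joined where 1 kb or less apart, they formed 80 regions, and 72 windows had no other within that distance.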

How the data were processed

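5hmC-DIP was sequenced from 3 libraries of each line. According to the study's methods, the authors aligned uniquely mapped reads to GRCm38 with STAR, removed duplicates with Picard and called 200 bp bins with MEDIPS (P threshold 0.05) from the triplicates. Bins that overlapped IgG peaks or held simple repeats were dropped, and HOMER annotated those left, most of which carry a gene ID (versions not given in the sources used here). The deposited values used are positions and gene IDs, with no counts, so depth per window is unknown. BED starts were taken as 0-based.

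Windows were placed by midpoint in GENCODE vM21 basic genes. Introns were numbered in the coding transcript of longest span. Sequence came from GRCm38.p6. A promoter ran from 1000 bp before to 100 bp after a start. Python 3.11.15, pandas 2.3.3, scipy 1.17.1 and pysam 0.24.0 were used. The scripts were tested on simulated data (16 of 16 checks passed). The genes and lists were chosen with earlier results of these data known. Named genes had at least 5 windows, the 3 highest counts per direction outside chromosome 6, or a chromosome 6 window. Alternatives varied annotation, assignment, joining, repeats, dense groups, chromosome 6 and single genes. The H3K27ac and RNA data were not used here.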

Additional observations from a re-analysis of the deposited data

How the results depend on the processing

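Of the values recomputed under alternatives, 86 stayed within 1.5 times the reported count or density, or within the interval or spread of the reported value. Among them, the AA10 density without chromosome 6 was 0.858 per Mb, below its reported interval of 0.9054 to 1.698. The Wt25 density without mostly repeat windows was 0.957 per Mb, below its interval of 1.007 to 1.835. The 2 values beyond both limits left out chromosome 6: AA10 windows inside the genes were then 24, and 65.2% of windows were higher in Wt25. Counting by deposited ID alone gave 49 Wt25 and 44 AA10 windows, and the share higher in Wt25 on chromosome 6 rose from 5.26% to 21.1% (20.5% by span or ID), within the wide interval of the reported value. Leaving out windows that are mostly repeat gave 32 and 34. Leaving out dense groups could change no value, because no member window lay in a run of 3 or more. Those unchanged values are among the 86. Leaving out Kirrel3 or Magi2, alternatives chosen after seeing the data, gave 58.2% and 46.2% higher in Wt25. No paired analysis was possible because the lists hold no value per replicate, and for the same reason no replicate could be left out. Depth sets which bins reach the lists, and a gene without a window is not shown to be without a difference.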

Other observations

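A separate list of 60 other synaptic genes (teneurins, latrophilins, Slitrk, Cadm and similar genes) was counted in the same way. In 31 of them a window lay inside (51.7%), against 22.1% of all genes, and in 16 of the 27 of at least 100 kb (59.3%), against 55.7% of genes of that length. They held 41 Wt25 and 31 AA10 windows, or 3.03 per Mb (2.178 to 4.117) and 2.29 per Mb (1.559 to 3.257). The Wt25 interval lies above the density of the 49 genes and below that of other long genes, and the AA10 interval includes that of other long genes. These densities were not matched for gene length, and only 27 of the 60 genes are at least 100 kb. Among genes outside the 49, the Wt25 density was 6.82 per Mb at 100 to 250 kb and 2.52 at 1000 kb or more. The genes with at least 5 windows were Tenm3 (4 Wt25 and 8 AA10) and Tenm4 (4 and 2), which encode teneurins, Adgrl1 (6 and 0), which encodes a latrophilin that binds them, and the adhesion gene Cadm1 (1 and 4).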
